A study of Arabidopsis thaliana with 12 samples.

Results

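The ATG8 family was followed in cold-treated Arabidopsis thaliana seedlings of the rcf1-1 mutant and of wild type. ATG8 proteins are small ubiquitin-like proteins of autophagy, the process by which a cell encloses part of its own content in a membrane and delivers it to the vacuole for breakdown. ATG8 is trimmed by the protease ATG4, activated by ATG7, passed to ATG3 and joined to the lipid phosphatidylethanolamine on the growing membrane, where it helps the membrane expand and binds cargo receptors. Plants carry many ATG8 genes, and in Arabidopsis their proteins fall by sequence into a clade of ATG8A to ATG8D, a clade of ATG8E to ATG8G, and a clade of ATG8H and ATG8I whose proteins end at the exposed glycine that carries the lipid. Members were the probe sets to which the array annotation gives exactly 1 gene with a symbol of ATG8 and a letter. This rule found 7 of the 22746 probe sets tested, for ATG8B (AT4G04620), ATG8C (AT1G62040), ATG8D (AT2G05630), ATG8E (AT2G45170), ATG8F (AT4G16520), ATG8G (AT3G60640) and ATG8H (AT3G06420). The annotation lists another 2 family genes under other symbols, APG8A (AT4G21980, also named ATG8A) and APG8H (AT3G15580, also named ATG8I), and these are given apart.

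Transcript levels were measured with Affymetrix ATH1 arrays in seedlings that were 14 days old. They had grown at 21 °C on sucrose medium with 16 h of light and 8 h of dark per day. The rcf1-1 seedlings carry a mutation in a DEAD-box RNA helicase gene, RCF1, which is not analysed here. The wild type is Columbia gl1 with a CBF2::LUC transgene, a background that the labels state for wild type alone. Both were sampled unchilled (0 h) and again when 12 h and 24 h of exposure to 4 °C had passed, with 2 biological replicates in each of the 6 groups and 12 arrays in all. The labels do not say how many seedlings each sample holds. No unchilled seedlings were sampled at 12 h or 24 h, so cold cannot be told apart from elapsed time, nor at 12 h from time of day. The term cold response below means the difference from 0 h. Values are the authors' deposited log2 RMA values, in which 1 unit is a doubling of signal. Levels are compared between samples within a probe set, and across probe sets only where a value is set against the median of all probe sets on an array. Precision is limited by the small number of arrays. Since RNA came from seedlings and not from sorted cells, fewer cells of a type and less RNA per cell cannot be told apart. The probe set of the leaf antenna gene LHCB4.2 had group means of 9.25 to 12.09 and that of the root gene PYK10 10.58 to 11.6, both far above the array medians of 4.032 to 4.214. Of the other root markers paired, EXPA7 had 4.14 to 4.95 and AGL42 2.41 to 2.88, below those medians.

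Both 24 h replicate 2 arrays stood apart from the others in the controls for RNA integrity. The 5' minus 3' log2 difference of the GAPDH control was -5.13 and -4.45 on these 2 arrays, against -1.06 to -0.29 on the other 10. For actin it was -5.61 and -4.9, against -4.83 to -4.12, and for ubiquitin -2.64 and -2.62, against -1.67 to -1.32. Replicate arrays correlated across probe sets, which are not independent, at r = 0.954 in rcf1-1 and 0.955 in wild type at 24 h, and at 0.989 to 0.996 at the earlier times. The replicate 2 minus replicate 1 differences of rcf1-1 and wild type at 24 h correlated across probe sets at r = 0.691, so genotype differences at 24 h are also given within each replicate number. The tests share 1 spread per probe set over all 6 groups, so standard errors and adjusted p at 24 h can be too small.

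After 24 h in the cold all 7 ATG8 probe sets had higher means in rcf1-1 than in wild type, and ATG8E, ATG8H and ATG8G passed the test. ATG8E, a member often tagged with a fluorescent protein to mark autophagosomes, was about 8 times as high. Before cold and after 12 h no member passed the test between the genotypes, though ATG8G differed by 0.62 and 0.58 there, against 0.89 at 24 h. In wild type ATG8E and ATG8F were lower in the cold and ATG8D was higher, while in rcf1-1 at 24 h ATG8E, ATG8D and ATG8H were higher and ATG8F was lower than at 0 h. The family therefore holds probe sets that moved in opposite directions in the same samples, as the plot of values on the 12 arrays shows.

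**Figure D1:**
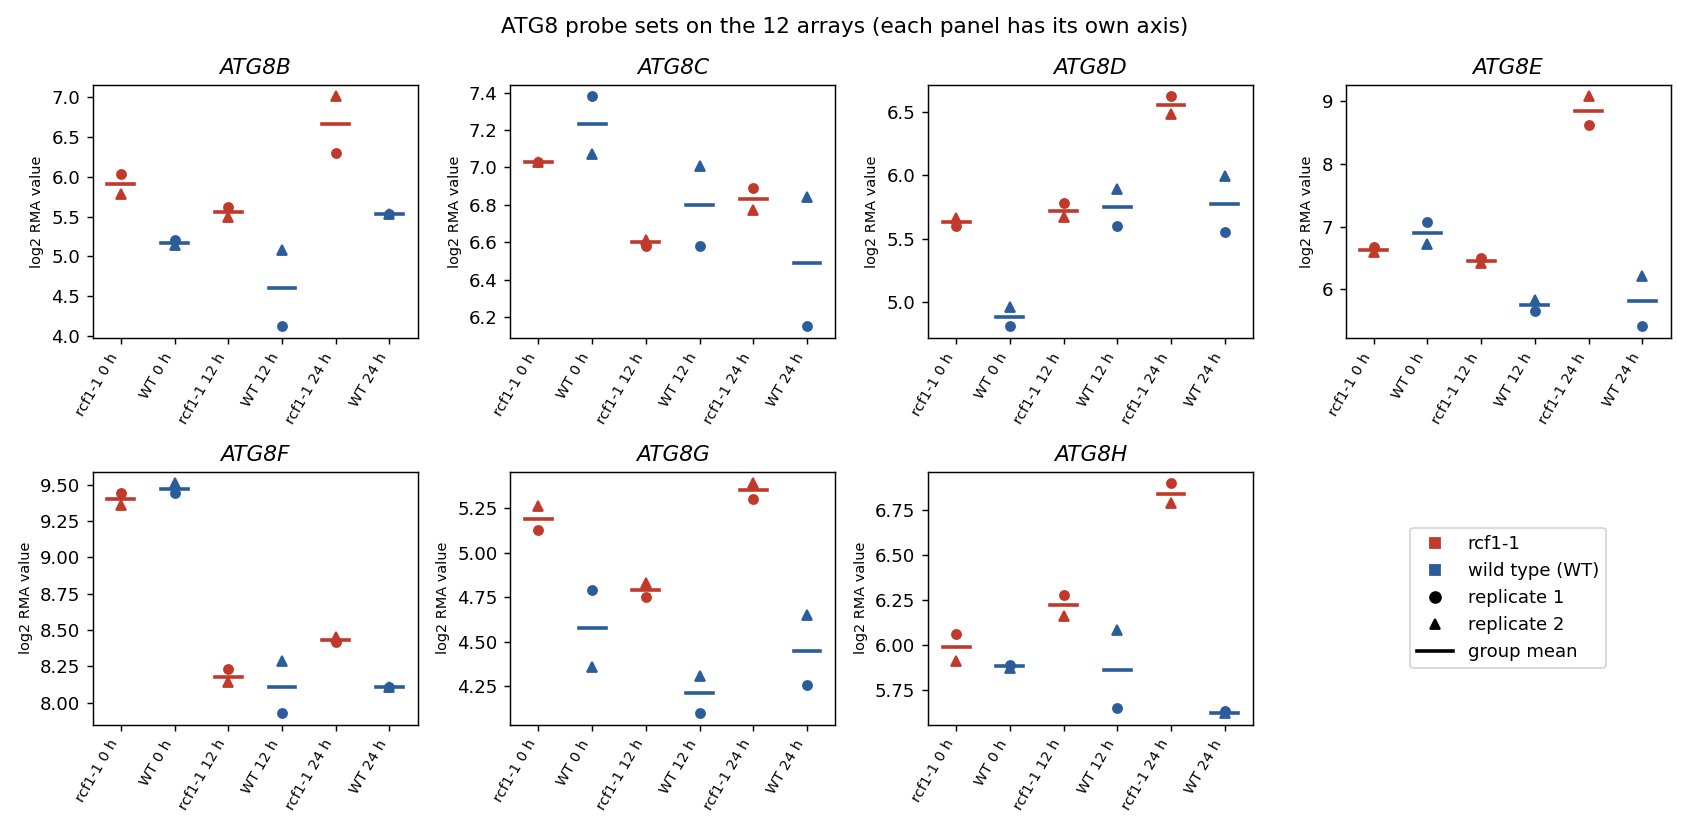
Log2 RMA values (vertical axes, a scale per panel) of the 7 ATG8 probe sets in the 6 groups (horizontal axes), with red for rcf1-1, blue for wild type, circles for replicate 1, triangles for replicate 2 and bars for the mean of 2 arrays. ATG8E reads 8.62 and 9.08 in rcf1-1 at 24 h, above all other arrays of that panel, while ATG8F reads highest at 0 h in both genotypes.

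The largest member difference was that of ATG8E at 24 h. In rcf1-1 ATG8E read 6.67 and 6.59 at 0 h, 6.5 and 6.42 at 12 h, and 8.62 and 9.08 at 24 h, for replicates 1 and 2. In wild type it read 7.08 and 6.73 at 0 h, 5.66 and 5.83 at 12 h, and 5.41 and 6.21 at 24 h. The 24 h values of rcf1-1 lie above every other ATG8E value of the series. The genotypes do not overlap at any of the 3 times, with rcf1-1 lower at 0 h and higher at 12 h and 24 h. Of all probe sets 49.5%, 55.1% and 35.7% did not overlap at these times. At 24 h the mean was 8.85 in rcf1-1 and 5.81 in wild type, a log2 difference of 3.04 ± 0.28 (SE, n = 2 per genotype; limma, Benjamini-Hochberg adjusted p = 0.00019), or 8.23-fold. Within replicate numbers the difference was 3.21 in replicate 1 and 2.87 in replicate 2, so it was as large without the arrays that stood apart. A test on the 24 h arrays alone, which has only the spread of these 4 arrays to go by, gave the same difference with an adjusted p of 0.11.

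ATG8H, of the clade that needs no trimming, was the next in size among the called members. It read 6.9 and 6.79 in rcf1-1 at 24 h, against 5.63 and 5.62 in wild type. The replicates of each genotype lie within 0.11 of each other, and the genotypes do not overlap. The log2 difference was 1.22 ± 0.21 (SE, n = 2 per genotype; adjusted p = 0.0064), with 1.26 in replicate 1 and 1.18 in replicate 2. With array quality weights, which give the 24 h arrays the lowest weights, its adjusted p was 0.21, and with the 24 h arrays alone it was 0.45.

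ATG8G, of the same clade as ATG8E, read 5.3 and 5.39 in rcf1-1 at 24 h, against 4.26 and 4.65 in wild type. The genotypes do not overlap, and the log2 difference was 0.89 ± 0.23 (SE, n = 2 per genotype; adjusted p = 0.044), with 1.05 in replicate 1 and 0.74 in replicate 2. This call lies close to the threshold: it was lost without wild-type replicate 1 (0.69, adjusted p = 0.12), without rcf1-1 replicate 1 (0.93, adjusted p = 0.07), without rcf1-1 replicate 2 (0.85, adjusted p = 0.074), with array quality weights (adjusted p = 0.54) and with the 24 h arrays alone (adjusted p = 0.69). With the replicate number as a block the adjusted p was 0.052.

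The other 4 members did not pass the test at 24 h. ATG8B read 6.3 and 7.01 in rcf1-1, against 5.53 and 5.53 in wild type, a difference of 1.13 with a 95% interval of 0.41 to 1.84 (adjusted p = 0.063). ATG8D read 6.62 and 6.48 in rcf1-1, against 5.55 and 5.99 in wild type, a difference of 0.78 with an interval of 0.29 to 1.27 (adjusted p = 0.061). Neither pair of groups overlaps, and both intervals lie above 0, so the missing calls do not show equal levels. Within replicates 1 and 2 ATG8B differed by 0.77 and 1.48, and ATG8D by 1.07 and 0.49. Fitting the shift shared by the 24 h replicate 2 arrays as a term led to calls of ATG8B (adjusted p = 0.0056) and ATG8D (adjusted p = 0.007). That setting called 5426 of all 22746 probe sets, against 1706 without it. Without single 24 h arrays ATG8B differed by 0.77 to 1.48 and ATG8D by 0.56 to 1, with 1 array left in the group concerned. ATG8C, at 6.89 and 6.77 in rcf1-1 against 6.15 and 6.84 in wild type, overlapped between the genotypes and differed by 0.33 (interval -0.24 to 0.91). ATG8C differed by -0.01 without wild-type replicate 1 and by 0.68 without wild-type replicate 2. With both replicate 2 arrays of 24 h left out, which leaves 1 array per genotype, it differed by 0.74. ATG8F, at 8.42 and 8.45 in rcf1-1 against 8.11 and 8.11 in wild type, differed by 0.32 (interval -0.08 to 0.73).

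In the 24 h comparison 3 of 7 members were called higher and 0 lower, where 3.31% of all probe sets were called higher and 4.19% lower (7.5% either way). The median difference of the members was 0.89, against 0 over all probe sets. The genotypes did not overlap in 6 of 7 members, against 35.7% of all probe sets. With the 24 h arrays alone 0 members were called, and with array quality weights 1, ATG8E. Of all 22746 probe sets 17 and 268 were called under these settings, against 1706 without them.

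**Figure D2:**
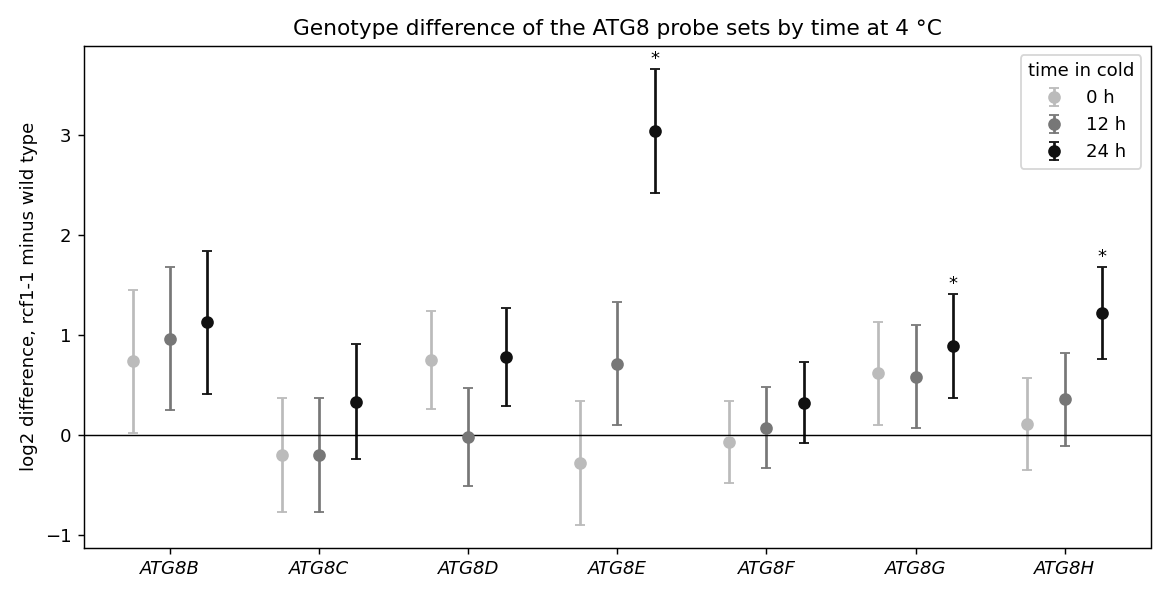
Log2 difference of rcf1-1 minus wild type (vertical axis) for the 7 ATG8 probe sets (horizontal axis) at 0 h, 12 h and 24 h, with limma's 95% intervals as bars, from 2 arrays per genotype and time, and a star where the adjusted p is under 0.05. The stars are at 24 h for ATG8E (3.04), ATG8H (1.22) and ATG8G (0.89).

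The genotypes were also compared before cold and at 12 h. At 0 h limma called 0 of 7 members, with 0.0923% of all probe sets called higher and 0.0176% lower (0.11% either way). By an unadjusted p under 0.05 there were 3 of 7, ATG8B, ATG8D and ATG8G, where 6.85% of all probe sets had such a p. ATG8D read 5.6 and 5.66 in rcf1-1, against 4.81 and 4.96 in wild type, a difference of 0.75 (interval 0.26 to 1.24, adjusted p = 0.43). ATG8B read 6.04 and 5.78 in rcf1-1, against 5.2 and 5.14 in wild type, a difference of 0.74 (interval 0.02 to 1.45). ATG8G read 5.13 and 5.26 in rcf1-1, against 4.79 and 4.36 in wild type, a difference of 0.62 (interval 0.1 to 1.13). These groups do not overlap, as was so for 6 of 7 members and 49.5% of all probe sets, but none of the differences passed the adjusted test in unchilled seedlings. ATG8E differed by -0.28 (interval -0.9 to 0.34), ATG8C by -0.2 (-0.77 to 0.37), ATG8F by -0.07 (-0.48 to 0.34) and ATG8H by 0.11 (-0.35 to 0.57). With array quality weights ATG8D was called (adjusted p = 0.017), as it was once the shift of the 24 h replicate 2 arrays was fitted (0.046) or both were left out (0.018). Over all 22746 probe sets these settings called 995, 691 and 1216, against 25 without them.

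At 12 h limma again called 0 of 7 members, with 0.541% of all probe sets called higher and 0.809% lower (1.35% either way), and 3 of 7 had an unadjusted p under 0.05, against 11.7% of all probe sets. ATG8B read 5.62 and 5.5 in rcf1-1, against 4.12 and 5.08 in wild type, a difference of 0.96 (interval 0.25 to 1.68, adjusted p = 0.23). Its wild-type replicates lie 0.96 apart, the widest replicate gap of any member, and the difference was 1.44 without wild-type replicate 2 and 0.48 without replicate 1. ATG8E differed by 0.71 (interval 0.1 to 1.33, adjusted p = 0.33). ATG8G read 4.75 and 4.83 in rcf1-1, against 4.1 and 4.31 in wild type, a difference of 0.58 (0.07 to 1.1). In both genes the groups do not overlap, as in 4 of 7 members and 55.1% of all probe sets. ATG8H read 6.28 and 6.16 in rcf1-1, against 5.65 and 6.08 in wild type, a difference of 0.36 (interval -0.11 to 0.82). ATG8C (-0.2), ATG8D (-0.02) and ATG8F (0.07) overlapped between the genotypes. With the 12 h arrays alone ATG8B (adjusted p = 0.01), ATG8E (0.0038) and ATG8G (0.042) were called, as they were with array quality weights (0.011, 0.0083 and 0.037). ATG8B and ATG8E were also called with the replicate 2 shift at 24 h fitted (0.031 and 0.015) and with those arrays left out (0.018 and 0.008). Over all 22746 probe sets the 12 h calls numbered 3874 with the 12 h arrays alone and 2982 with weights. They numbered 2196 with the shift fitted and 3105 with those arrays left out, against 307 otherwise.

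Whether the cold response differed between the genotypes was tested as the rcf1-1 response minus the wild-type response. For ATG8E at 24 h this difference was 3.32 ± 0.4 (SE; adjusted p = 0.0035), from a response of 2.22 in rcf1-1 and -1.09 in wild type. ATG8E thus moved in opposite directions in the genotypes, each past the test. It was the only called member of 7, where 0.598% of all probe sets were called higher and 0.506% lower (1.1% either way). It was called in 15 of 16 alternatives, the exception being the compared arrays alone (adjusted p = 0.056). ATG8H had a difference of 1.11 ± 0.3 (interval 0.46 to 1.77, adjusted p = 0.11), from 0.85 in rcf1-1 and -0.26 in wild type. ATG8H was called without the trend in the variance model (adjusted p = 0.047) and with the replicate 2 shift fitted (0.011). Over all 22746 probe sets these settings called 467 and 2581, against 251 without them. Without both arrays that carry the shift, which leaves 1 array per genotype at 24 h, the ATG8H difference was 1.16. The other 5 members differed by 0.03 to 0.53, with intervals that include 0. Among them ATG8G, called between the genotypes at 24 h, differed in its response by 0.27 (interval -0.46 to 1). At 12 h limma called 0 members, with 0.0484% of all probe sets called higher and 0.0396% lower (0.0879% either way). The p was under 0.05 unadjusted for ATG8E (0.99, interval 0.12 to 1.87, adjusted p = 0.85) and ATG8D (-0.77, interval -1.47 to -0.08, adjusted p = 0.86), which lie on opposite sides of 0. Of all probe sets 5.19% had such a p.

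Among the differences of chilled from unchilled wild type, those of ATG8F were the largest. ATG8F read 7.93 and 8.29 at 12 h and 8.11 and 8.11 at 24 h, against 9.44 and 9.51 at 0 h. It fell by 1.36 on the log2 scale at both times (SE 0.18, n = 2 per time; adjusted p = 0.00064 at 12 h and 0.00072 at 24 h). The chilled arrays all lie more than a unit below the unchilled ones. ATG8E fell by 1.16 ± 0.28 at 12 h (adjusted p = 0.021) and by 1.09 ± 0.28 at 24 h (adjusted p = 0.026). ATG8D, in contrast, rose by 0.86 ± 0.22 at 12 h (adjusted p = 0.028) and by 0.89 ± 0.22 at 24 h (adjusted p = 0.023), with 5.6 and 5.89 at 12 h and 5.55 and 5.99 at 24 h, against 4.81 and 4.96 at 0 h. At each time 1 of 7 members was called higher and 2 lower, where at 12 h 6.05% of all probe sets were called higher and 5.92% lower (12% either way), and at 24 h 5.83% and 7.33% (13.2% either way). The 2 comparisons share the 0 h arrays.

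ATG8B, ATG8C, ATG8G and ATG8H did not pass the test in wild type. ATG8C came nearest at 24 h, at -0.73 (interval -1.3 to -0.16, adjusted p = 0.095), and its replicates there were 6.15 and 6.84, against 7.38 and 7.07 at 0 h. This difference was -0.39 without 24 h replicate 1 and -1.08 without 24 h replicate 2, and each of these fits leaves 1 array at 24 h. ATG8C was called with the replicate 2 shift fitted (-0.87, adjusted p = 0.011). That setting called 5495 of all 22746 probe sets, against 2994 without it. With both arrays that carry the shift left out, which leaves 1 array at 24 h, ATG8C differed by -1.08. ATG8H differed from 0 h by -0.02 (interval -0.48 to 0.45) at 12 h and -0.26 (-0.72 to 0.21) at 24 h. The calls of ATG8D and ATG8E at 12 h were each lost whichever 1 of the 4 arrays was left out, with differences of 0.72 to 1.01 for ATG8D and -1.33 to -0.99 for ATG8E. At 24 h ATG8D lost its call without 0 h replicate 1 (0.81, adjusted p = 0.13), 0 h replicate 2 (0.96, 0.084) or 24 h replicate 2 (0.67, 0.11), and ATG8E without 0 h replicate 1 (-0.92, 0.17), 0 h replicate 2 (-1.27, 0.069) or 24 h replicate 1 (-0.7, 0.077). The 24 h call of ATG8D was also lost with array quality weights (adjusted p = 0.087), that of ATG8E after a second quantile normalization (-0.97, 0.089), and both with the 0 h and 24 h arrays alone (0.21 for ATG8D and 0.19 for ATG8E). ATG8F was called in each fit that left out a single array, and missed the threshold only on the arrays of 24 h and 0 h alone (adjusted p = 0.053 at 24 h).

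In rcf1-1 at 12 h ATG8F was the only member called. It read 8.23 and 8.14 at 12 h, against 9.44 and 9.36 at 0 h, and fell by 1.22 ± 0.18 (SE, n = 2 per time; adjusted p = 0.0012). Here 0 of 7 members were called higher and 1 lower, where 5.46% of all probe sets were called higher and 6.78% lower (12.2% either way). ATG8E differed from 0 h by -0.17 (interval -0.79 to 0.45) and ATG8D by 0.09 (-0.4 to 0.58). With the compared arrays alone ATG8C (-0.43, adjusted p = 0.0048) and ATG8G (-0.4, 0.044) were called as well, and with array quality weights ATG8C (0.03). Over all 22746 probe sets these settings called 8550 and 8043, against 2784 without them.

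By 24 h the rcf1-1 seedlings had 3 members called higher and 1 lower, where 8.38% of all probe sets were called higher and 12.4% lower (20.8% either way). ATG8E rose 4.67-fold, a log2 difference of 2.22 ± 0.28 (SE, 2 arrays at each time; limma's adjusted p = 0.00033), and kept its call in all 12 alternatives run. ATG8D rose by 0.92 ± 0.22 (adjusted p = 0.014), with 6.62 and 6.48 at 24 h, against 5.6 and 5.66 at 0 h. ATG8H rose by 0.85 ± 0.21 (adjusted p = 0.015), with 6.9 and 6.79 at 24 h, against 6.06 and 5.91 at 0 h. For each of these 3 genes both 24 h arrays lie above both 0 h arrays, and 62% of all probe sets did not overlap in this comparison. ATG8F, at 8.42 and 8.45 against 9.44 and 9.36 at 0 h, fell by 0.97 ± 0.18 (adjusted p = 0.0039). ATG8B, at 6.3 and 7.01 against 6.04 and 5.78 at 0 h, differed by 0.75 (interval 0.03 to 1.46, adjusted p = 0.13), while ATG8C (-0.2) and ATG8G (0.15) had intervals that include 0. ATG8D lost its call without 0 h replicate 1 (0.89, adjusted p = 0.11) or 0 h replicate 2 (0.95, 0.083), ATG8H likewise (0.93 with 0.075, and 0.78 with 0.13), and ATG8F without 0 h replicate 1 (-0.93, 0.05). The green tissue gene LHCB4.2, the only 1 of 5 listed markers paired with a probe set, fell by 2.68 in rcf1-1 and by 2.51 in wild type at 24 h, and did not pass the test between the genotypes (-0.33, interval -0.89 to 0.24). Of 6 listed root markers 3 were paired. PYK10 fell by 1.02 in rcf1-1 at 24 h (adjusted p = 0.028) and differed by -0.83 in wild type (adjusted p = 0.086), and by -0.15 between the genotypes (interval -0.78 to 0.48). EXPA7 differed from 0 h by -0.54 in rcf1-1 and -0.51 in wild type at 24 h, and AGL42 by -0.14 and 0.22, none of them called. In wild type at 12 h AGL42 was called higher (0.41, adjusted p = 0.023), where 6.05% of all probe sets were called higher. The part of these markers in the ATG8 values was not tested.

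**Figure D3:**
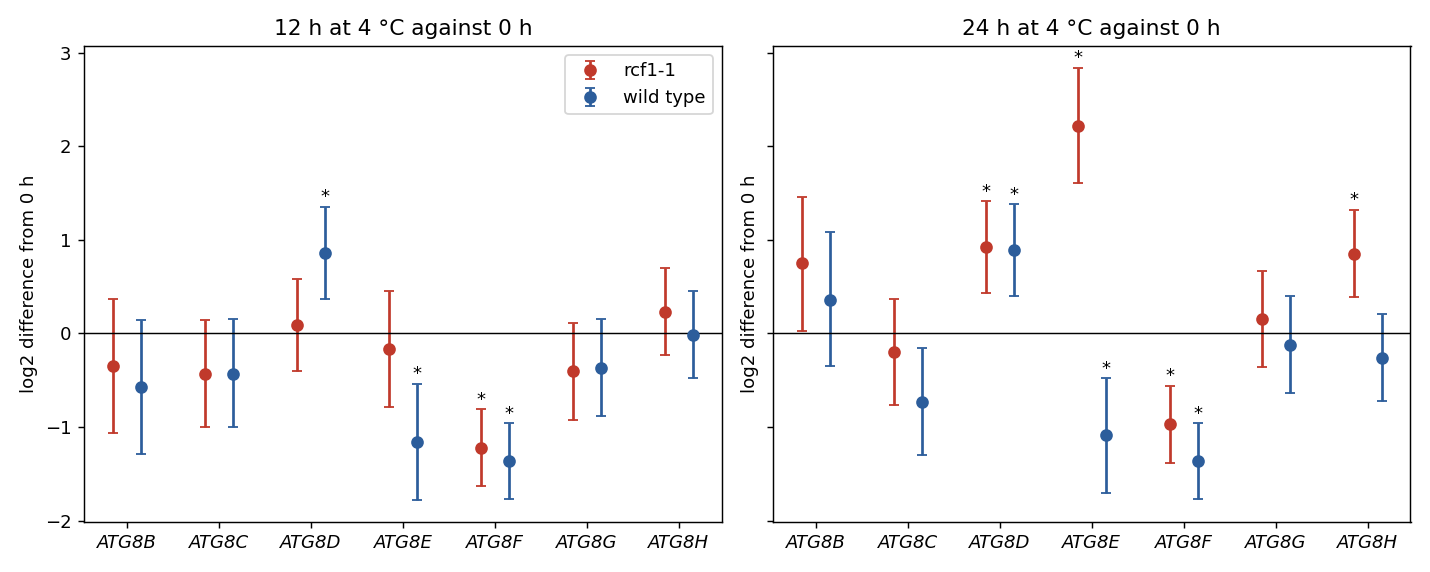
Log2 difference from 0 h (vertical axes) of the 7 ATG8 probe sets (horizontal axes) at 12 h (left) and 24 h (right) of cold, in rcf1-1 (red) and wild type (blue), with limma's 95% intervals, from 2 arrays per group, and a star where the adjusted p is under 0.05. At 24 h ATG8E lies at 2.22 in rcf1-1 and at -1.09 in wild type, while ATG8F lies below 0 in both genotypes.

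Ordered by group mean, the members show different profiles. For ATG8E the order was rcf1-1 at 24 h (8.85), wild type at 0 h (6.9), rcf1-1 at 0 h (6.63), rcf1-1 at 12 h (6.46), wild type at 24 h (5.81) and wild type at 12 h (5.75), and of neighbours in this order only the last 2 overlap. ATG8H followed rcf1-1 at 24 h (6.84), 12 h (6.22) and 0 h (5.99), then wild type at 0 h (5.88), 12 h (5.86) and 24 h (5.62), with an overlap between wild type at 0 h and 12 h. All 3 rcf1-1 groups of ATG8H thus lie above all 3 wild-type groups by their means. The same holds for ATG8B, from 6.66 in rcf1-1 at 24 h to 4.6 in wild type at 12 h, and for ATG8G, from 5.35 in rcf1-1 at 24 h to 4.21 in wild type at 12 h. In ATG8B rcf1-1 at 12 h (5.56) overlaps wild type at 24 h (5.53), and in ATG8G rcf1-1 at 12 h (4.79) overlaps wild type at 0 h (4.58), as do the wild-type neighbours. ATG8D was highest in rcf1-1 at 24 h (6.55) and lowest in wild type at 0 h (4.88), with the groups between them at 5.63 to 5.77. ATG8F was highest at 0 h in rcf1-1 (9.4) and wild type (9.47), which overlap, and 8.11 to 8.43 in the chilled groups. ATG8C spanned 0.73 between its highest and lowest group means, the narrowest of the 7, against 3.11 for ATG8E.

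The family genes listed under other symbols gave smaller differences. APG8A (ATG8A) read 7.27 and 7.08 in rcf1-1 at 24 h, against 6.63 and 6.59 in wild type, a difference of 0.57 (interval 0.11 to 1.02, adjusted p = 0.13). In its other groups APG8A means were 6.61 to 6.85. APG8H (ATG8I) read 7.98 and 7.96 in rcf1-1 at 24 h, against 7.84 and 7.88 in wild type, a difference of 0.11 (interval -0.29 to 0.51). Neither gene passed the test in any of the 9 comparisons. APG8A was called between the genotypes at 24 h once the shift of the replicate 2 arrays was fitted (0.57, adjusted p = 0.022). That setting called 5426 of all 22746 probe sets, against 1706 without it. With both of those arrays left out, APG8A differed from 0 h by 0.54 in rcf1-1 at 24 h, where 1 array was left. With APG8A and APG8H included, 3 of 9 family genes were called higher at 24 h, and the median difference was 0.78.

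Other genes of autophagy were taken from a list of 33 core genes, which code for the kinase complex that starts autophagy, the lipid kinase complex, the ATG8 and ATG12 conjugation enzymes and the lipid-binding ATG18 proteins. Of these 11 were paired with a probe set, and most carry only their locus number in the annotation. At 24 h 1 was called higher and 1 lower in rcf1-1 than in wild type, where 3.31% of all probe sets were called higher and 4.19% lower, and the median difference was -0.03, against 0.89 for the ATG8 probe sets and 0 over all. AT5G50230 read 7.33 and 6.44 in rcf1-1, against 6.06 and 5.25 in wild type (1.23 ± 0.32, adjusted p = 0.042). AT3G59950 read 4.17 and 4.82 in rcf1-1, against 5.47 and 5.92 in wild type (-1.2 ± 0.27, adjusted p = 0.023). ATG3, the enzyme that passes ATG8 to its lipid, differed by 0.28 (interval -0.19 to 0.74), and AT5G66930 (ATG101), a part of the starting kinase complex, by 0.51 (0.01 to 1.01, adjusted p = 0.23). With array quality weights limma called 0 of the 11, where 268 of all 22746 probe sets were called, against 1706 without weights. Both calls were also lost without wild-type replicate 2 or without rcf1-1 replicate 1 at 24 h, with 1 array left in the group concerned.

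**Figure D4:**
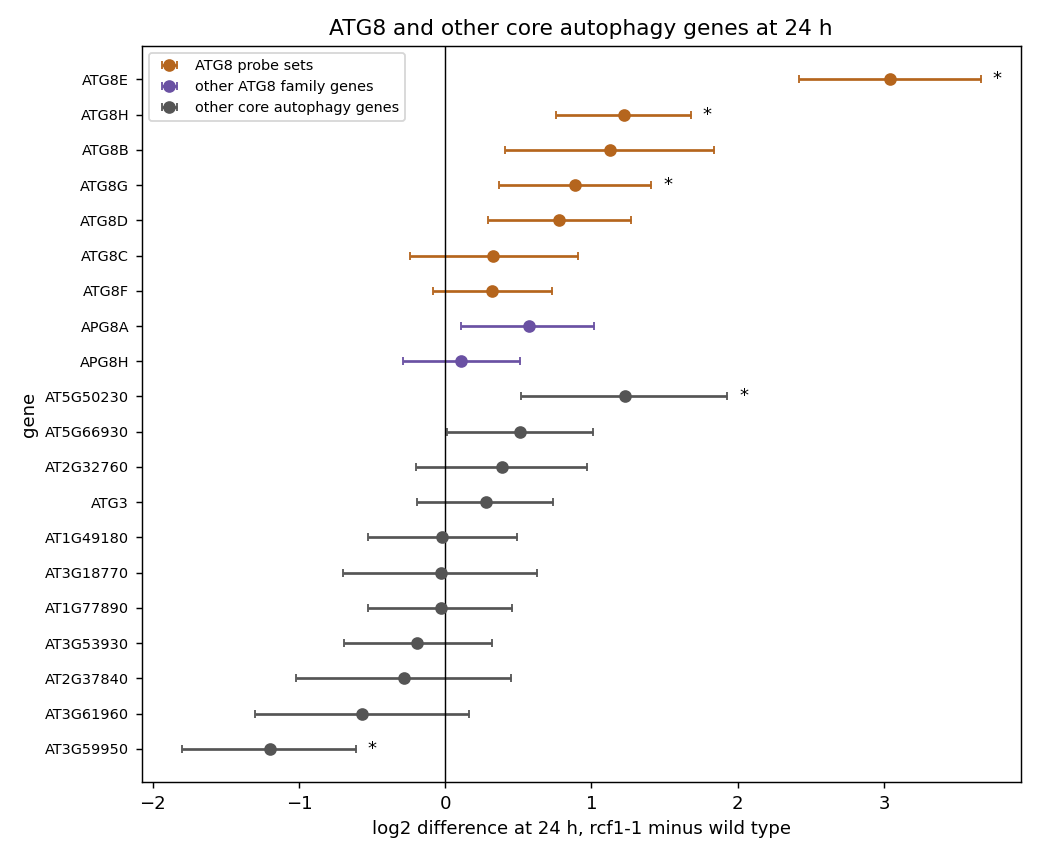
Log2 difference of rcf1-1 minus wild type at 24 h (horizontal axis) for the 7 ATG8 probe sets, the 2 family genes under other symbols and 11 other core autophagy genes (vertical axis), with limma's 95% intervals, from 2 arrays per genotype, and a star where the adjusted p is under 0.05. The 7 ATG8 points lie at 0.32 to 3.04, and the 11 other core genes lie on both sides of 0, from -1.2 to 1.23.

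At 0 h and 12 h limma called 0 of the 11 core genes between the genotypes, where 0.11% and 1.35% of all probe sets were called. By an unadjusted p under 0.05 there were 0 at 0 h and 2 at 12 h, against 6.85% and 11.7% of all probe sets. At 12 h 2 were called once array quality weights were used, and 3 with the 12 h arrays alone, settings under which 2982 and 3874 of the 22746 probe sets were called. In wild type 1 was called at 24 h, with 13.2% of all probe sets called: ATG3, which fell by 0.89 ± 0.21 (adjusted p = 0.017) to 6.11, against 7 at 0 h. This call was lost without either 0 h array or without 24 h replicate 2, and more core genes were called without 24 h replicate 1. Each of these fits leaves 1 array in a group, and the calls over all probe sets fell or rose in the same way. In rcf1-1 at 24 h 1 was called, with 20.8% of all probe sets called: AT3G59950, which fell by 1.22 ± 0.27 (adjusted p = 0.0093). That call was lost without either 0 h array, and more core genes were called without either 24 h array, where again 1 array is left in a group. Over all probe sets the calls fell without either 0 h array. They rose without 24 h replicate 1 and fell without 24 h replicate 2. In rcf1-1 at 12 h 0 were called, with 12.2% of all probe sets called. The core genes had differences of -0.93 to 0.07 and a median of -0.57, and 6 of 11 had an unadjusted p under 0.05, against 23.7% of all probe sets. Weighting the arrays by quality gave 8 calls there, and the 0 h and 12 h arrays alone gave 7, while over all 22746 probe sets the calls were 8043 and 8550 under these settings, against 2784 without them. For 10 genes of cargo receptors and adaptors 1 was paired, AT4G34660, which was not called in any comparison. RAPTOR1, a partner of the TOR kinase that restrains autophagy, was the only 1 of 4 listed regulators paired with a probe set. It fell by 1.51 ± 0.32 in rcf1-1 at 24 h (adjusted p = 0.007) to 3.51, below the array medians, and differed by -0.72 between the genotypes there (interval -1.42 to -0.02, adjusted p = 0.23). In wild type RAPTOR1 differed from 0 h by -1.05 at 24 h (interval -1.75 to -0.35, adjusted p = 0.053). The difference in response was -0.46 (interval -1.45 to 0.53, adjusted p = 0.76).

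Stress of the endoplasmic reticulum is known to induce autophagy in Arabidopsis, and 5 of 17 listed genes of the unfolded protein response were paired. At 24 h 1 of the 5 was called higher in rcf1-1 than in wild type, BZIP60, a transcription factor of that response, where 3.31% of all probe sets were called higher. By an unadjusted p under 0.05 in either direction there were 3 of 5, against 20.9% of all probe sets. Of these BZIP60 and BZIP28 were higher in rcf1-1 and CRT1b was lower. BZIP60 read 10.69 and 10.67 in rcf1-1, against 7.43 and 7.56 in wild type (3.19 ± 0.21, adjusted p = 1.9e-05). The chaperone gene ATERDJ3B (-0.25), the calreticulin gene CRT1b (-0.53), BZIP17 (0.49) and BZIP28 (0.87) were not called. At 12 h BZIP60 was already called between the genotypes, at 1.51 ± 0.21 (adjusted p = 0.0085), and in wild type it rose by 0.84 at 24 h, where ATG8E fell. Against 0 h in rcf1-1 at 24 h BZIP60 (4.02) and BZIP17 (1.04) were called higher and ATERDJ3B (-1.6) and CRT1b (-0.68) lower. Of all probe sets 8.38% were called higher there and 12.4% lower. ATERDJ3B was also called lower in wild type at 12 h (-1.13) and 24 h (-1.11), and BZIP60 higher in rcf1-1 at 12 h (2.02). The part of BZIP60 in the ATG8 values was not tested. Of 11 senescence and starvation genes 2 were paired, ALPHA-VPE and GAMMA-VPE, which code for vacuolar processing enzymes, and limma called neither in any comparison. GAMMA-VPE differed by -0.98 between the genotypes at 24 h (interval -1.86 to -0.1, adjusted p = 0.19), and by an unadjusted p under 0.05 it was 1 of the 2 there.

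The probe sets most like each member were found by Pearson's r over the 12 arrays, among 3965 single-gene probe sets (3966 for ATG8C) whose group means span at least 1 unit. These values are descriptions, since the arrays form 6 groups and share the 24 h replicate 2 shift. Nearest to ATG8E were AT5G43460 (r = 0.95), AT5G58787 (0.94), AT1G54120 (0.93), AT5G39250 (0.92) and AT1G23560 (0.92). AT5G58787 shows the shape: its mean was 7.66 in rcf1-1 and 4.69 in wild type at 24 h, and 5.29 in rcf1-1 and 5.31 in wild type at 0 h. Nearest to ATG8H were AT1G72940 (0.96), AT1G05060 (0.95), AT1G10585 (0.93), AT3G45730 (0.93) and NDB4 (0.93), which codes for a mitochondrial NAD(P)H dehydrogenase. NDB4 means spanned 5.07, with 8 in rcf1-1 and 3.12 in wild type at 24 h. Nearest to ATG8F were PUB26 (0.98), a ubiquitin ligase gene, AT4G19860, AT1G33055, AT1G15740 and AT1G19000 (0.97 to 0.98), all of them higher at 0 h than in the chilled groups by their means.

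ATG8B and ATG8G had AT1G45170 in common among their nearest, at r = 0.92 and 0.94. The other 4 for ATG8B were AT1G06790, AT3G20430, LIS and AT3G15590 (0.87 to 0.92), and for ATG8G AT1G02160, AT1G16000, AT4G23885 and AT5G47830 (0.9 to 0.95). Nearest to ATG8D were AT1G25275, AT1G12830, AT5G11760, AT1G17090 and AT1G29710 (0.91 to 0.94), and nearest to ATG8C were AT1G01240, AT5G08240, AT4G37180, AT3G03270 and AT4G26790 (0.82 to 0.85). Among the members themselves, r over the 12 arrays was highest for ATG8E with ATG8H (0.87), followed by ATG8B with ATG8G (0.85), ATG8E with ATG8G (0.79) and ATG8B with ATG8E (0.77). ATG8F was nearest to ATG8C (0.75) and lay opposite to ATG8D (-0.54). Members of 1 sequence clade were therefore not always the nearest in profile: ATG8E and ATG8F, of the same clade, had r = 0.21.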

How the data were processed

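Transcript levels of 12 seedling samples in 6 groups were used as the authors deposited them, as log2 values. They were made with RMA, as the submitters' processing notes state. Which software ran it, and on which arrays together, is not given in the sources used here. Of 22810 probe sets, 64 controls were left out of the tests. Genes came from the array's annotation, with locus tags and synonyms from RefSeq's TAIR10.1 gene table. A single gene was given for 13513 probe sets, several for 503 and none for 8730. Where a listed gene had more than 1 probe set, that with the highest mean was taken.

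A mean per group was fitted on all 12 arrays with limma 3.58.1 in R 4.3.3 (6 residual and 4.7 prior degrees of freedom, variance trend on mean expression), for 9 contrasts. Tests are two-sided, with Benjamini-Hochberg adjustment over the 22746 probe sets of a contrast, and called means an adjusted p under 0.05. Intervals are limma's, at 95%. The procedure was tested on simulated data. Their replicate spread came from the 0 h and 12 h groups, and both 24 h replicate 2 arrays got the same shift. That test therefore does not show how many 24 h calls are false. The members and lists were chosen with earlier results of these data known. All ATG8 probe sets are named, as are called list members (up to 5 per list and contrast) and the 5 probe sets nearest to each member by r. Some list members that were not called are named too. ATG8 call counts and differences were recomputed without the trend, without probe sets below the 30th percentile, after a second quantile normalization, with a replicate block, with array weights, with the compared arrays alone, with a term for or without both 24 h replicate 2 arrays, and without each array in turn. The same alternatives for core autophagy genes, all probe sets, APG8A and APG8H were added after seeing the data. No sequences were used here.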

Additional observations from a re-analysis of the deposited data

Results flagged for a closer look

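The cold response of ATG8E differed between the genotypes at 24 h by 3.32 on the log2 scale (SE 0.4, adjusted p = 0.0035), from a response of 2.22 in rcf1-1 and -1.09 in wild type. It is given here because the test of the difference itself passed. Both replicates of each genotype lie on the side of their mean response.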

How the results depend on the processing

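Of 15 member differences that passed the test, 3 kept direction and call in every alternative run, and none of the 15 changed direction. The replicate number as a block left 2 ATG8 probe sets called between the genotypes at 24 h, against 3 without it (ATG8G, adjusted p = 0.052), and changed no other member call. The numbers share no stated origin: replicate differences correlated between groups at -0.103 to 0.0867, apart from the 24 h pair at 0.691.

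At 0 h the count between genotypes was 0, and 1 with array quality weights, with the shift of both 24 h replicate 2 arrays fitted as a term and without those arrays. At 12 h it was 0, and 3 with weights, 3 with the compared arrays alone, 2 with the term and 2 without those arrays. At 24 h it was 3, and 4 without the trend, 5 without dim probe sets, 5 with the term, 1 with weights and 0 with the compared arrays alone. Without single arrays it was 0 to 0 at 0 h and 12 h and 2 to 4 at 24 h. In wild type it was 3 at each time, and 1 to 1 at 12 h and 1 to 3 at 24 h without single arrays. At 24 h it was also 2 after a second quantile normalization, 2 with weights, 4 with the term and 0 with the compared arrays alone. In rcf1-1 it was 1 at 12 h (2 with weights, 3 with the compared arrays alone) and 4 at 24 h (3 with weights, 2 with the compared arrays alone, 1 to 5 without single arrays). For the difference in response it was 0 at 12 h, and 1 with weights, with the compared arrays alone and without both 24 h replicate 2 arrays. At 24 h it was 1, and 2 without the trend, 2 with the term and 0 with the compared arrays alone. Counts at 24 h without both replicate 2 arrays are left out here, since they rest on 1 array per group. Between the genotypes the compared arrays alone gave 3874 calls over all probe sets at 12 h, against 307. At 24 h they gave 17, against 1706. The 24 h arrays had quality weights of 0.303 to 0.305, and the others 1.25 to 2.62. A spread shared by all groups can be too small for 24 h and too large for the earlier times. The compared arrays alone also leave fewer samples to set the spread, and the causes of these changes were not tested.

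Some uncalled differences changed sign. After a second quantile normalization these were ATG8C (0.01) and ATG8G (0.04) for the difference in response at 12 h, and ATG8D between genotypes at 12 h (0.02). Without single arrays the ranges that crossed 0 were, between genotypes, -0.41 to 0.01 for ATG8C, -0.17 to 0.12 for ATG8D and -0.1 to 0.25 for ATG8F at 12 h and -0.01 to 0.68 for ATG8C at 24 h. In wild type they were -0.23 to 0.2 for ATG8H at 12 h and -0.33 to 0.09 for ATG8G at 24 h. For the difference in response they were -0.26 to 0.7 for ATG8B, -0.21 to 0.21 for ATG8C, -0.03 to 0.32 for ATG8F and -0.25 to 0.18 for ATG8G at 12 h, and -0.18 to 0.25 for ATG8D at 24 h.

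Over all probe sets the counts moved more. Between genotypes they were 25 at 0 h (2 to 1216 over the alternatives), 307 at 12 h (23 to 3874) and 1706 at 24 h (17 to 5426). In wild type they were 2724 (1267 to 6498) and 2994 (785 to 5612), and in rcf1-1 2784 (1335 to 8550) and 4734 (2001 to 7724), at 12 h and 24 h. For the difference in response they were 20 (4 to 685) and 251 (28 to 3150).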
